A study of Mus musculus with 6 samples.

Results

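In single-nucleus RNA profiles of the mouse hypothalamus, 129 of 34542 nuclei were chosen by markers of arcuate kisspeptin and neurokinin B type neurons. A nucleus was taken when it had at least 1 UMI (unique molecular identifier, 1 counted RNA molecule) of at least 3 of the 6 genes Esr1, Tacr3, Tac2, Kiss1, Pdyn and Nr5a2. It also had to hold no more than 2 UMIs of Pomc and of Pmch, the defining peptide genes of melanocortin and melanin-concentrating-hormone neurons. The choice therefore rests on measured values of these 8 genes, whose levels are given below as a description with no test. Kiss1 itself was at 0 UMIs in every nucleus of all 3 libraries, which limits nuclei with a Kiss1 UMI, not nuclei that express the gene, to at most 0.00869%. An empty row can come from the reference used for counting as well as from low expression, and these cannot be told apart here. The nuclei are therefore called Esr1/Tacr3/Tac2 nuclei, a name that does not mean that each holds all 3 genes. Nothing is said of kisspeptin expression in these nuclei.

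The study treated chow-fed mice, diet-induced-obese mice on a high-fat diet (DIO), and chow-fed ob/ob mice (OB), which lack functional leptin, with rapamycin or with vehicle. Rapamycin inhibits the mTORC1 kinase complex. Hypothalamic nuclei were sorted for NeuN, a protein of neuronal nuclei, and sequenced with 10x Genomics 3' v3 chemistry as 1 pool for each kind of mouse. Within a pool, 1 DNA-barcoded hashtag marked the rapamycin nuclei and 1 the vehicle nuclei. The number of mice behind a hashtag, their sex, strain and age, and the dose were not given in the sources used here. The 2 hashtag groups of a pool share a run, and the p-values below measure only the spread between hashtag groups or pools. Pool, diet, genotype, run and software version cannot be told apart.

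Arcuate neurons of this kind are known as KNDy neurons because they make kisspeptin, neurokinin B (from Tac2) and dynorphin (from Pdyn). They release kisspeptin in pulses that drive gonadotropin-releasing hormone neurons, so they set the rhythm of the reproductive axis. Neurokinin B excites neighbouring cells of the population through its receptor Tacr3, and dynorphin restrains them through the kappa opioid receptor Oprk1. Ovarian and testicular steroids act on these cells through the estrogen receptor Esr1, and signals of energy reserve, leptin among them, are known to influence fertility through hypothalamic circuits.

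The pools held 10853 chow, 11405 DIO and 12284 OB barcodes with median depths of 5826, 5572 and 2804 UMIs. They contributed 31, 67 and 31 of the Esr1/Tacr3/Tac2 nuclei. The rapamycin and vehicle hashtags marked 16 and 10 of them in the chow pool, 26 and 34 in the DIO pool, and 17 and 4 in the OB pool. A further 13 of the 129 (10.1%, exact 95% interval 5.48% to 16.6%) carried both hashtags, against 4.66% of all nuclei, and no other doublet caller was run. In the OB pool 3722 of 12284 nuclei had no hashtag call. Pairs of pools shared 31 to 38 barcodes, none of which was an Esr1/Tacr3/Tac2 nucleus in both. All but 1 of the 129 had more UMIs of pan-neuronal than of glial and vascular genes, and 30143 other neuronal nuclei served for comparison.

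Esr1, the nuclear estrogen receptor, was detected in 123 of the 129 nuclei, Tacr3 in 97, Nr5a2 in 95, Tac2 in 70 and Pdyn in 36. Nr5a2 encodes an orphan nuclear receptor. In the RefSeq annotation of GRCm38.p6 Esr1 lies at chr10:4611989-5005633, Tacr3 at chr3:134829007-134934581 and Tac2 at chr10:127724478-127731768. The same genes had a UMI in 14.7%, 3.22%, 1.11%, 1.28% and 1.35% of the other neuronal nuclei, at nearly the same median depth (5037 against 5308 UMIs). In the non-neuronal nuclei, with a median of 1572 UMIs, they had one in 2.93%, 0.281%, 0.304%, 0.281% and 0.187%. The most frequent combination was Esr1 with Tacr3 and Nr5a2, in 33 nuclei. Esr1 with Tac2 and Nr5a2 followed with 20 nuclei, and Esr1 with Tacr3 and Tac2, without or with Nr5a2, accounted for 18 nuclei each. Exactly 3 genes were found in 98 nuclei, 4 genes in 28 and all 5 detectable genes in 3, each of these 3 from the DIO pool. Just outside the threshold were 475 nuclei with 2 of the genes, of which 436 held Esr1, 181 Tacr3 and 108 Tac2, whereas of the 98 just inside it 92 held Esr1, 68 Tacr3 and 46 Tac2.

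To see whether these nuclei resembled one another outside the genes that chose them, a nearest-neighbour graph of all nuclei was built without the 8 rule genes, from 3000 variable genes and 40 principal components. The Esr1/Tacr3/Tac2 nuclei lay together. Of the 129, 115 fell in 1 of 31 clusters, a cluster of 1625 nuclei, and the others were spread so that 10 clusters held at least 1. Among the 20 nearest neighbours of an Esr1/Tacr3/Tac2 nucleus a median of 11 (mean 9.78) were themselves such nuclei. For other neurons the median was 0 (mean 0.0445). The median for Esr1/Tacr3/Tac2 nuclei was 12 in the chow pool, 12 in the DIO pool and 8 in the OB pool. Nuclei with and without a Tac2 UMI had the same median of 11, with ranges of 0 to 16 and 0 to 17.

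**Figure D1:**
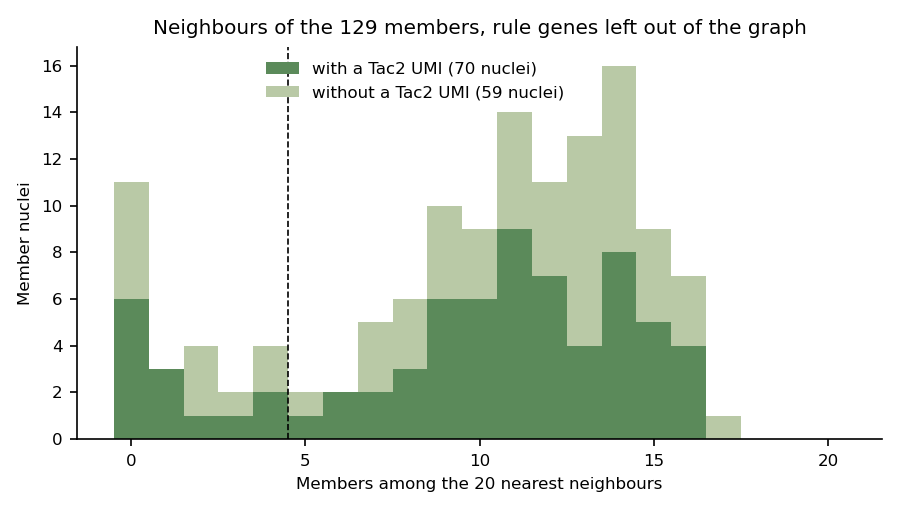
Number of Esr1/Tacr3/Tac2 nuclei (members) among the 20 nearest neighbours of each of the 129, split by whether the nucleus held a Tac2 UMI. The horizontal axis counts neighbours, the vertical axis nuclei, and the dashed line marks the border at 5 neighbours used for the wider set. A small group of 11 nuclei had none, and both shades peak above 10.

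The graph also showed how far the 3-gene rule reached. Nuclei with 2 of the genes had 5 or more such neighbours in 10.9% of cases, nuclei with 3 genes in 75.8%, with 4 genes in 96.4% and with 5 genes in 100%. Taking every nucleus with 5 or more such neighbours gave a wider set of 212 nuclei (63 chow, 82 DIO and 67 OB), of which 105 met the rule and 107 did not. This set does not read the 8 genes directly, although its seeds were chosen by them, and it was added after the data had been seen. The 24 rule-chosen nuclei outside it were deeper, with a median of 8917 UMIs against 5040 for the 105 inside, and 9 of the 24 (37.5%, 18.8% to 59.4%) were hashtag doublets. Levels of rule genes, shares and many of the rapamycin and between-pool values are given for both sets below. The test against other neurons was made for the rule-chosen nuclei only, so its dependence on these 24 nuclei was not tested.

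The levels of the rule genes, as CPM (UMIs of the gene scaled to 1000000 UMIs of the summed group), describe how strongly each marker was present. Levels are compared between groups for 1 gene at a time, not between genes. Esr1 stood at 679 CPM in the chow rapamycin and 616 CPM in the chow vehicle nuclei, 757 and 926 CPM in the DIO nuclei, and 741 and 418 CPM in the OB nuclei. Tacr3 stood at 325 and 215 CPM in chow, 394 and 276 CPM in DIO, and 189 and 359 CPM in OB, in the same order. For both receptors the 4 OB vehicle nuclei had a counting interval that overlapped those of every other group.

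Tac2, the neurokinin B precursor, stood at 95.6 and 71.6 CPM in the chow rapamycin and vehicle nuclei, 172 and 121 CPM in the DIO nuclei, and 247 and 179 CPM in the OB nuclei. The chow groups were the lowest in this order, and the neighbouring values had overlapping counting intervals. With the called and uncalled nuclei of a pool together and hashtag doublets left out, Tac2 was 86.0 CPM in chow, 140 CPM in DIO and 231 CPM in OB in the rule-chosen nuclei. In the wider set the same sums gave 48.2, 121 and 121 CPM, chow again the lowest. The ratio of DIO to chow was 1.63 (counting interval 0.905 to 3.11) in the rule-chosen nuclei and 2.51 (1.40 to 4.79) in the wider set. That of OB to chow was 2.69 (1.36 to 5.49) and 2.52 (1.27 to 5.16). Under vehicle in the wider set OB rested on 1 UMI, at 35.6 against 30.2 CPM in chow. Chow was not the lowest for Tac2 in the other neurons within either hashtag. There Tac2 was at 2.74, 2.50 and 4.98 CPM under rapamycin and 3.20, 1.55 and 3.0 CPM under vehicle for chow, DIO and OB. Tacr3 in these sums was 281, 320 and 241 CPM in the rule-chosen nuclei and 231, 275 and 132 CPM in the wider set. Its ratios to chow in the rule-chosen nuclei were 1.14 (0.811 to 1.62) for DIO and 0.857 (0.511 to 1.41) for OB. In the wider set they were 1.19 (0.883 to 1.61) and 0.568 (0.348 to 0.901). Among vehicle nuclei OB stood above chow in both sets, from 6 OB UMIs (359 against 215 CPM, and 214 against 163 CPM). Esr1 was 654, 849 and 685 CPM in the rule-chosen nuclei and 611, 901 and 810 CPM in the wider set. Its ratios to chow in the rule-chosen nuclei were 1.30 (1.05 to 1.62) for DIO and 1.05 (0.772 to 1.42) for OB. In the wider set they were 1.47 (1.24 to 1.76) and 1.33 (1.07 to 1.64). Among the rule-chosen vehicle nuclei OB stood below chow, from 7 OB UMIs (418 against 616 CPM). The wider set includes 105 rule-chosen nuclei, so these levels also bear the rule's choice and are a description. With 1 pool of each kind no test of diet or genotype was possible.

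Nr5a2 stood at 134 and 315 CPM in the chow rapamycin and vehicle nuclei, 234 and 208 CPM in the DIO nuclei, and 218 and 359 CPM in the OB nuclei. Pdyn, the dynorphin precursor, was sparse, at 76.5 and 71.6 CPM in chow, 43.1 and 53.3 CPM in DIO, and 72.6 and 0 CPM in OB. Only 4 nuclei make up the OB vehicle group, where the value of 0 allows up to 179 CPM (a floor of 3 counts).

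**Figure D2:**
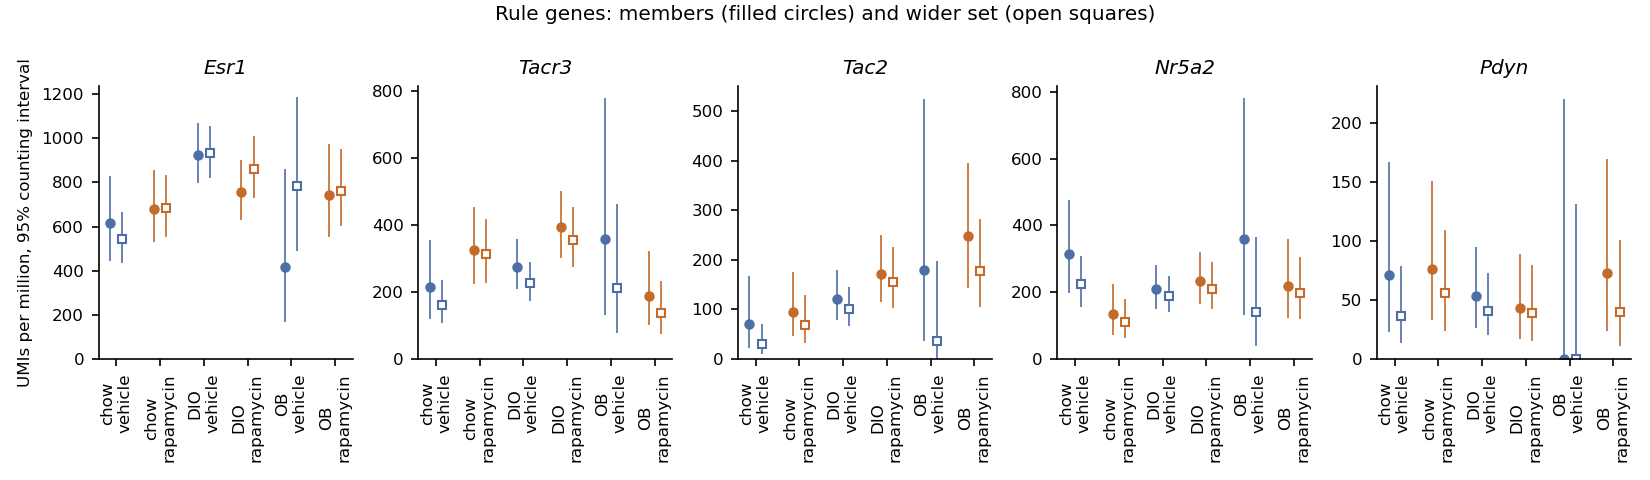
Levels of the 5 detected rule genes in CPM by hashtag group (vehicle blue, rapamycin orange), for the rule-chosen nuclei (filled circles) and the wider set (open squares), with exact 95% Poisson intervals for counting error. Esr1 lies between 418 and 933 CPM throughout, and the intervals are widest for the 4 OB vehicle nuclei.

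The genes outside the rule that set the Esr1/Tacr3/Tac2 nuclei apart from other neurons were led by Col24a1, which encodes a collagen, the relaxin receptor gene Rxfp1 and the estrogen-induced gene Greb1. The 12 sums of UMIs, Esr1/Tacr3/Tac2 nuclei and other neurons in each of 6 hashtag groups, were tested with edgeR's quasi-likelihood test with the hashtag group as a block and Benjamini-Hochberg adjustment. Of 12592 genes tested, 1045 (8.30%) passed an adjusted p of 0.05, 340 (2.70%) higher and 705 (5.60%) lower, and the median gene had a log2 fold change of -0.14. DESeq2 called 575 genes, of which 565 were among the 1045. Leaving out the DIO pool, which holds 60 of the 107 hashtag-called nuclei, gave 374 calls, of which 360 were among the 1045. After every nucleus was thinned to 2000 UMIs, the rule was met by 3 and 6 chow, 9 and 9 DIO, and 8 and 0 OB nuclei (rapamycin and vehicle). That fit, without the OB vehicle group, gave 580 calls, 34 higher and 546 lower, with a median log2 fold change of -0.99. Values of single genes after thinning, given below, stand beside that median. Of these 580, 359 were among the 1045, and 74 of the 1037 earlier calls tested there had the other sign. Against neurons that held only 1 or 2 of the rule genes, 806 of 8824 genes (9.13%) were called.

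Col24a1 (chr3:145292472-145552013), which encodes a fibrillar collagen chain, stood at 287 and 201 CPM in the chow rapamycin and vehicle nuclei, 320 and 553 CPM in the DIO nuclei, and 189 and 179 CPM in the OB nuclei. Other neurons of the same groups held 5.45 to 6.89 CPM. The log2 fold change was 5.52 ± 0.21 (SE; edgeR adjusted p = 2.93e-143), and no group of other neurons overlapped any group of Esr1/Tacr3/Tac2 nuclei.

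Rxfp1 (chr3:79641600-79737951), the receptor for the peptide hormone relaxin, stood at 430 and 731 CPM in the chow rapamycin and vehicle nuclei, 486 and 349 CPM in the DIO nuclei, and 421 and 179 CPM in the OB nuclei. In other neurons it ranged from 7.07 to 17.4 CPM. Its log2 fold change of 5.05 ± 0.18 had the smallest p-value of all genes tested (edgeR adjusted p = 5.54e-171).

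Greb1 (chr12:16670615-16801394), a gene known in other tissues for its induction by estrogen, stood at 268 and 258 CPM in the chow rapamycin and vehicle nuclei, 265 and 276 CPM in the DIO nuclei, and 87.2 and 359 CPM in the OB nuclei. Other neurons held 3.63 to 11.6 CPM. The log2 fold change was 4.72 ± 0.22 (edgeR adjusted p = 1.45e-98), with the OB rapamycin nuclei the lowest and still above every group of other neurons.

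Prlr (chr15:10177238-10349190), the prolactin receptor, was at 631 and 731 CPM in the chow rapamycin and vehicle nuclei, 794 and 751 CPM in the DIO nuclei, and 654 and 777 CPM in the OB nuclei. All 6 groups lay close together and far above the other neurons. Other neurons held 84.4 to 103 CPM, and the log2 fold change was 2.76 ± 0.16 (edgeR adjusted p = 4.97e-64).

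The 12 genes with the highest fold change, among those past the test with at least 50 UMIs in these nuclei and 1 direction in all 6 groups, also included Vgll3, a transcriptional cofactor, with a log2 fold change of 4.17 ± 0.30. Sytl5, which encodes a synaptotagmin-like protein of vesicle traffic, followed at 3.11 ± 0.25, and Hs3st5, a heparan sulfate sulfotransferase, at 2.54 ± 0.18. Sphkap, a protein kinase A anchoring protein, rose by 2.50 ± 0.16, and Sned1, an extracellular matrix protein, by 2.30 ± 0.26. Olfm2, an olfactomedin, rose by 2.16 ± 0.17. The last of the 12 were the potassium channel gene Kcnk13 at 2.13 ± 0.26 and the glycine receptor subunit gene Glra3 at 2.09 ± 0.16. All 12 were separated from other neurons without overlap, as were 137 of all 340 genes called higher. The 12 were chosen by fold change and 1 direction, which favours such separation. Against the other neurons of the leading cluster alone none of the 12 lost its call. After thinning to 2000 UMIs Sytl5, Sned1 and Olfm2 kept their direction and lost their call.

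Genes lower in the Esr1/Tacr3/Tac2 nuclei were led by Adarb2, a member of the RNA-editing enzyme family. It stood at 325 and 43.0 CPM in the chow rapamycin and vehicle nuclei, 86.1 and 102 CPM in the DIO nuclei, and 145 and 0 CPM in the OB nuclei, against 621 to 780 CPM in other neurons. Its log2 fold change was -2.63 ± 0.22 (edgeR adjusted p = 6.24e-31). Dpp10, an auxiliary subunit of potassium channels, followed at -2.27 ± 0.20, the cation channel gene Trpm3 at -2.26 ± 0.21 and the metabotropic glutamate receptor gene Grm8 at -2.24 ± 0.21. Cntn5, which encodes a neural adhesion protein, was at -2.14 ± 0.20, Alcam, another adhesion protein, at -2.07 ± 0.22, Arpp21, a phosphoprotein regulated by cyclic AMP, at -2.04 ± 0.22 and Fam19a1, a secreted protein, at -1.97 ± 0.21. Trpm3 was the exception among the 8 in that 1 group, the OB vehicle nuclei at 777 CPM, overlapped the other neurons.

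**Figure D3:**
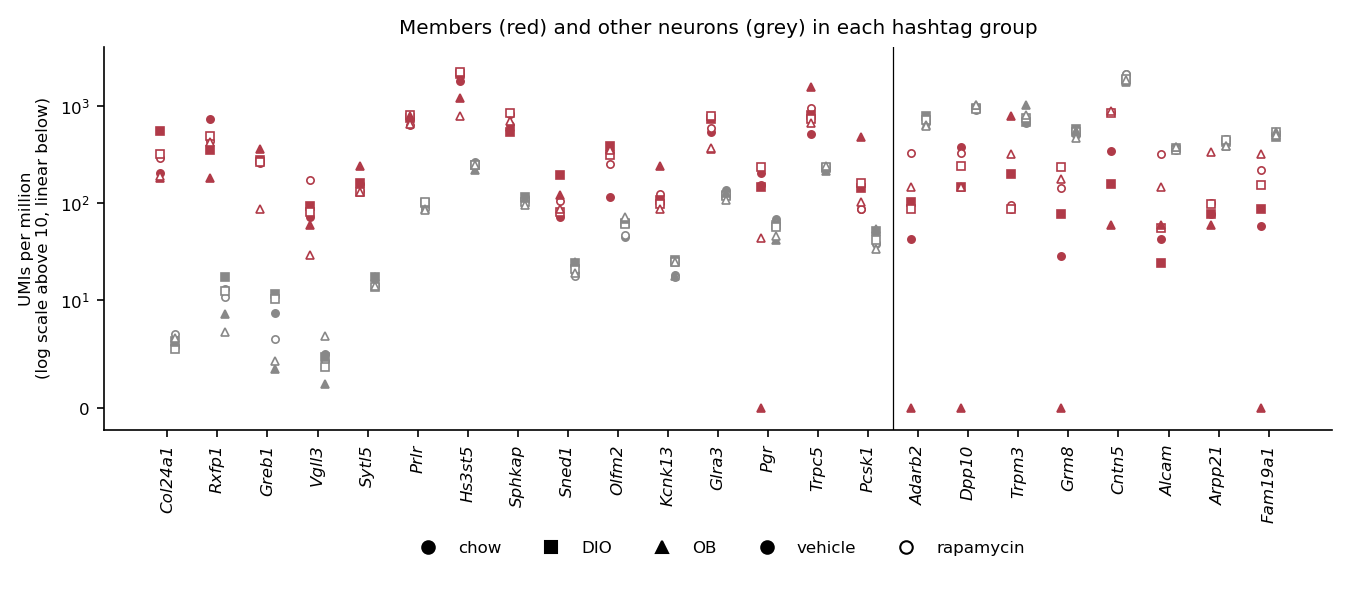
Levels in CPM (log scale above 10, linear below) of the 12 highest and 8 lowest named genes and of Pgr, Trpc5 and Pcsk1, in Esr1/Tacr3/Tac2 nuclei (red) and other neurons (grey). Each point is 1 of 6 hashtag groups, shape gives the pool, and filled points are vehicle. Red and grey points do not overlap for the first 12 genes, which were chosen by fold change and 1 direction.

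Which of these differences remained against the most similar neurons was seen by limiting the other neurons to the leading cluster. All hashtag-called Esr1/Tacr3/Tac2 nuclei entered, whether or not they lay in that cluster (14 of all 129 did not). In this comparison 4204 genes were testable and 389 (9.25%) were called, 199 higher and 190 lower. Of the 389, 304 were also among the 1045, 301 of them in the same direction. Against these closer neurons Trpm3 (log2 fold change -0.54), Cntn5 (-0.63) and Fam19a1 (-0.20) were no longer called, and Arpp21 turned to 0.39 without a call. The other 4 of the lowest 8 kept their call there.

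Greb1 and other estrogen-regulated genes are known to carry response elements for the nuclear estrogen receptor, whose core recognition motif is AGGTCA. Because Esr1 marked 123 of the 129 nuclei, the promoter windows of the 12 highest genes were searched for AGGTCA on both strands (RefSeq, GRCm38.p6, 250 bases before to 50 bases after each start, 11 of the 12 genes matched). The windows that held it in these genes are shown 5' to 3' on the gene's strand, with the motif or its reverse complement TGACCT in capitals. The Col24a1 window is chr3:145292222-145292521 on the plus strand, the Greb1 window chr12:16800837-16801136 on the minus strand and the Olfm2 window chr9:20728180-20728479 on the minus strand.

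Col24a1: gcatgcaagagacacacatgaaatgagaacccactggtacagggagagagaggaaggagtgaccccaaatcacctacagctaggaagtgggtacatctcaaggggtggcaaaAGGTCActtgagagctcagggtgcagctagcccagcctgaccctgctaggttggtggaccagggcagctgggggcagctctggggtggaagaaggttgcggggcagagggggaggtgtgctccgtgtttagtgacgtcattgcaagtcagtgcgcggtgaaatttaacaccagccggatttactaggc
Greb1: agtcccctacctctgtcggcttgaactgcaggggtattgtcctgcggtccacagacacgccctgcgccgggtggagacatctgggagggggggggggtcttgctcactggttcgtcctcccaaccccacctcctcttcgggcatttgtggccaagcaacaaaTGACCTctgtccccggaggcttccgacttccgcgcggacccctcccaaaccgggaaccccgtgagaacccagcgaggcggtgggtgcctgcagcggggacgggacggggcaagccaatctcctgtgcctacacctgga
Olfm2: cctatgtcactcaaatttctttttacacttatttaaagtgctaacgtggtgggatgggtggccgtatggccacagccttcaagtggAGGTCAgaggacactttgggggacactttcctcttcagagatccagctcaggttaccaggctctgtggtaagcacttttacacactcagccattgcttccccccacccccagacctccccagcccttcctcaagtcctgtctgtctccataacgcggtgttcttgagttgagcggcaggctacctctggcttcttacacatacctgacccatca

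The motif began at position -138 in Col24a1, -88 in Greb1 and -164 in Olfm2, counted from the start of transcription. It was found for 3 of the 11 genes (27.3%), against 18.1% of 27025 genes with a window. The inverted repeat GGTCA and TGACC with NNN between them was found in none of the 11 and in 0.0740% of genes. A match describes the letters of these windows and shows no binding.

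Receptors for steroid and other circulating hormones were divided. Of 14 tested outside the rule, 4 were higher, 7 lower and 3 not called, beside 2.70% higher and 5.60% lower of all genes, and their median log2 fold change was -0.82 against -0.14 for all genes. The counts of this list and of those that follow are descriptions, read beside these shares of all genes, with no test of a list. Prlr was one of those higher. The progesterone receptor gene Pgr rose by 1.27 ± 0.21, at 153 and 201 CPM in chow, 234 and 145 CPM in DIO, and 43.6 and 0 CPM in OB. Pgr was above the other neurons in the 4 chow and DIO groups. The OB rapamycin value rests on 3 UMIs and stood beside 45.2 CPM in other neurons, and the 0 of OB vehicle allows up to 179 CPM, so no direction was read in OB. Pgr was no longer called without the DIO pool (0.86) and turned to -0.27 after thinning. Igf1r, the receptor for insulin-like growth factor, rose by 0.73 ± 0.18 and turned to -0.13 after thinning, and Insr, the insulin receptor, was at -0.01 ± 0.20 with no call.

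The leptin receptor gene Lepr was found with 4 UMIs in all hashtag-called Esr1/Tacr3/Tac2 nuclei. It stood at 12.3 CPM in the DIO rapamycin and 9.70 CPM in the DIO vehicle nuclei and at 0 in the 4 chow and OB groups. These 0 values allow up to 28.7 and 43.0 CPM in chow and 43.6 and 179 CPM in OB (rapamycin and vehicle). Other neurons held 24.0 to 36.4 CPM, and the log2 fold change was -2.42 ± 0.60 (edgeR adjusted p = 0.00121). Ghr, the growth hormone receptor, fell by 1.14 on the log2 scale, the mineralocorticoid receptor gene Nr3c2 by 1.41 and the orphan receptor gene Rorb by 2.60. Nr3c2 lost its call against the leading cluster (-0.57). Rora, related to Rorb, was at -0.97 ± 0.18 and at 0.14 without a call against the leading cluster. Esr2, the other nuclear estrogen receptor, had 2 UMIs and was not called.

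Among receptors for neuropeptides and local signals, 24 were tested, 6 were higher, 5 lower and 13 not called (2.70% and 5.60% of all genes were higher and lower), with a median of -0.99, or -0.30 with the genes at 0 UMIs set at their bound. After Rxfp1, the natriuretic peptide clearance receptor gene Npr3 rose by 3.26 ± 0.44. It stood at 19.1 and 85.9 CPM in chow, 36.9 and 38.8 CPM in DIO and 0 in both OB groups. Other neurons held 2.05 to 3.77 CPM. The 0 values in OB allow up to 43.6 CPM with rapamycin and 179 CPM with vehicle, so no direction was read there. Oprk1, the dynorphin receptor, rose by 1.81 ± 0.31 (86.0 and 28.6 CPM in chow, 105 and 67.9 CPM in DIO, 29.1 and 0 CPM in OB, against 15.8 to 18.7 CPM). It was not called without the DIO pool (1.29) or after thinning (0.84), and its 0 in OB vehicle allows up to 179 CPM. Hcrtr2, an orexin receptor gene, rose by 1.69 ± 0.19, and the neuropeptide Y receptor gene Npy1r by 1.73 ± 0.43. Npy1r lost its call without the chow pool (1.22) and without the DIO pool (1.99), and so did Npy5r (1.24 ± 0.38, at 0.74 and 1.50). Npy5r turned to -0.89 against the other neurons of the leading cluster. The mu opioid receptor gene Oprm1 fell by 1.68 on the log2 scale. Kiss1r, the kisspeptin receptor, had 3 UMIs and was not called.

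Among transmitter genes the glutamatergic marker was higher and the GABAergic markers were lower. Slc17a6, the vesicular glutamate transporter of hypothalamic neurons, rose by 0.80 ± 0.20 (edgeR adjusted p = 0.00146), at 239 and 100 CPM in chow, 135 and 194 CPM in DIO, and 72.6 and 179 CPM in OB, against 71.3 to 85.0 CPM in other neurons. It lost its call without the chow pool (0.72) and without the DIO pool (0.65), and turned to -0.15 after thinning. The GABA-synthesis genes Gad1 and Gad2 fell by 1.44 and 1.74 on the log2 scale, and DESeq2 did not call Gad1. Both were lower in every group but OB vehicle, where 0 UMIs allow up to 179 CPM and no direction was read. Gad1 in DIO rapamycin (55.4 against 59.0 CPM) and Gad2 in chow rapamycin (86.0 against 92.2 CPM) stood close to other neurons. That Gad2 value came from 9 UMIs, of which the rule-chosen nuclei inside the wider set held 1 (12.5 CPM). The wider set stood at 20.9 CPM of Gad2 in chow rapamycin and 44.5 CPM of Gad1 in DIO rapamycin. Slc32a1, the vesicular GABA transporter, had 3 UMIs and was not called. Of 8 transmitter genes tested, 1 was higher, 5 were lower and 2 were not called, beside 2.70% higher and 5.60% lower of all genes, with a median of -1.60.

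Transcription factors of the arcuate region and its neighbours gave 4 higher and 9 lower genes of 15 tested, where all genes gave 2.70% and 5.60%, with a median of -3.14, or -1.54 with the genes at 0 UMIs set at their bound. Tbx3, a T-box factor of the arcuate nucleus, rose by 2.71 ± 0.43. It stood at 38.2 and 28.6 CPM in chow, 36.9 and 43.6 CPM in DIO, and 14.5 and 0 CPM in OB. Other neurons held 3.95 to 6.21 CPM, and the 0 of OB vehicle allows up to 179 CPM. Nhlh2, a helix-loop-helix factor needed for normal fertility and body weight, rose by 2.61 ± 0.55 from 12 UMIs in all. Both kept their direction and lost their call without the DIO pool (2.23 and 2.31) and after thinning (1.65 and 1.35). Sox14 (1.72 ± 0.58) and Nkx2-1 (1.22 ± 0.42) passed the threshold with adjusted p-values of 0.0374 and 0.0442 in edgeR. Each lost its call without any 1 pool, Sox14 at 1.39 to 2.18 and Nkx2-1 at 1.04 to 1.28, and Nkx2-1 turned to -0.82 after thinning.

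Several regional factors of other hypothalamic neurons were near 0 in the Esr1/Tacr3/Tac2 nuclei. Isl1, which marks Pomc and other arcuate neurons, had 2 UMIs, a ratio to other neurons of 0.0617 (0.00748 to 0.223). Otp, a factor of paraventricular, Agrp and somatostatin neurons, had 0 UMIs and was at least 1.86-fold lower, taking a floor of 3 counts over all 6 groups. Lef1 was at 0 as well, at least 4.22-fold lower. Nr5a1, the defining factor of the ventromedial nucleus, also had no UMI in these nuclei. Summed over 6 paraventricular markers, 3 of them at 0, the Esr1/Tacr3/Tac2 nuclei held 0 to 77.6 CPM and other neurons 104 to 176 CPM. The 6 ventromedial markers, 1 of them at 0, summed to 131 to 299 CPM against 93.5 to 106 CPM, and they include Slc17a6 and Sox14.

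Of 22 neuropeptide and peptide-processing genes tested, 2 were higher, 6 lower and 14 not called, with a median of -0.67, beside 2.70% higher and 5.60% lower of all genes. Pcsk1, a prohormone convertase, rose by 1.50 ± 0.23 (86.0 and 85.9 CPM in chow, 160 and 141 CPM in DIO, 102 and 478 CPM in OB, against 33.2 to 53.4 CPM), while Pcsk2, the other main convertase, fell by 1.22 on the log2 scale. Pcsk1 was at 0.25 with no call after thinning, and Pcsk2 at -0.30 with no call against the leading cluster. Scg2, a granin of secretory granules, rose by 0.87 ± 0.20, and lost its call without the DIO pool (0.89) and after thinning (0.22). Agrp, the peptide of hunger-promoting arcuate neurons and a common free RNA in such tissue, was at -0.70 ± 0.30 and not called, with 26 UMIs. Npy, Ghrh and Th had 0 UMIs, which allows up to 4.77 CPM (a floor of 3 counts over all 6 groups). Other neurons held 0.859 to 14.6 CPM of Npy, 1.26 to 2.95 CPM of Ghrh and 4.38 to 7.04 CPM of Th, so no direction was read.

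Of 29 ion channel genes tested, 4 were higher, 4 lower and 21 not called, with a median of -0.16, beside 8.30% called of all genes. Trpc5, a cation channel that leptin and other signals open in arcuate neurons, rose by 1.58 ± 0.16 (937 and 516 CPM in chow, 732 and 805 CPM in DIO, 668 and 1554 CPM in OB, against 212 to 240 CPM in other neurons). Kcnd2, which encodes an A-type potassium channel, rose by 1.26 ± 0.19, with the Esr1/Tacr3/Tac2 nuclei at 5335 to 7718 CPM and other neurons at 2003 to 2334 CPM. Kcnj3, a G-protein-gated potassium channel gene, fell by 1.54 on the log2 scale.

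The pathways that rapamycin, leptin and obesity bear on are also read beside the 8.30% of all genes that were called. Of 16 genes of leptin signalling, Stat5b was higher (0.60 ± 0.19, and 0.21 with no call without the DIO pool), Lepr lower, and 14 were not called, with a median of 0.02. Of 35 genes of mTORC1 and its regulators, none was higher and 2 were lower, with a median of -0.19. The 2 were Tsc1, which encodes an mTORC1 inhibitor, at -0.89 ± 0.24, and Lamtor5, with 0 UMIs. Tsc1 lost its call without the chow pool (-0.86). Mtor itself was at -0.59 ± 0.28 with no call. Nr4a2, an inducible nuclear receptor, was the 1 gene called higher of 7 immediate early genes, at 2.96 ± 0.33. It stood at 66.9 and 115 CPM in chow, 36.9 and 97.0 CPM in DIO, and 14.5 and 0 CPM in OB. Other neurons held 3.75 to 8.86 CPM, and the 0 of OB vehicle allows up to 179 CPM. Nr4a2 was not called after thinning (2.42). Cholesterol and fatty acid synthesis gave 1 lower call of 25, chaperones gave 0 of 24, and glial and vascular markers 0 of 7. Summed over 22 glial and vascular markers, 10 of them at 0, the Esr1/Tacr3/Tac2 nuclei held 186 to 538 CPM and other neurons 174 to 292 CPM. The highest value came from the 4 OB vehicle nuclei, and its part in other results was not tested.

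Nuclei with a Tac2 UMI were then compared with those without, since the rule admits nuclei that lack it. Over the 6 hashtag groups 840 genes outside the rule were testable, and edgeR called 0 of them (28 at an unadjusted p under 0.05), as did DESeq2 (12 at an unadjusted p under 0.05). Only hashtag-called nuclei entered this test. With no filter on low counts 2 of 14907 genes passed, RP23-231J2.1 and Unc13c, named after their values were seen.

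The share of neuronal nuclei that were Esr1/Tacr3/Tac2 nuclei was 0.343% (exact 95% interval 0.196% to 0.556%) with rapamycin and 0.202% (0.0967% to 0.370%) with vehicle in the chow pool. In the DIO pool it was 0.454% (0.297% to 0.665%) with rapamycin and 0.790% (0.548% to 1.10%) with vehicle. In the OB pool it was 0.350% (0.201% to 0.569%) and 0.250% (0.0683% to 0.640%). The rule counts genes detected and so depends on depth. After every nucleus was thinned to 2000 UMIs, which left out 23 chow, 48 DIO and 825 OB neuronal nuclei of the hashtag groups as too shallow, the shares with rapamycin fell to 0.0665% in chow, 0.163% in DIO and 0.211% in OB. With vehicle they fell to 0.125%, 0.192% and 0%. All these thinned intervals overlapped, and the 0 of OB vehicle allows up to 0.262%.

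The wider set still depends on detected rule genes through its seeds, and 105 of its 212 nuclei met the rule. In it rapamycin nuclei made up 0.557% of neurons for chow, 0.576% for DIO and 0.701% for OB mice. The vehicle shares were 0.605%, 1.07% and 0.438%. The chow groups there stood level with the DIO rapamycin group, and DIO vehicle was the highest, at 1.07% (0.784% to 1.42%). Its interval overlapped those of every other group. Among these were DIO rapamycin (0.397% to 0.808%), chow vehicle (0.408% to 0.862%) and OB rapamycin (0.480% to 0.988%). With 1 hashtag for each treatment in a pool there is no replicate, and no test of any of these shares was made. Fewer cells of a type and less RNA per cell of the marker genes cannot be told apart in a share set by detection.

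**Figure D4:**
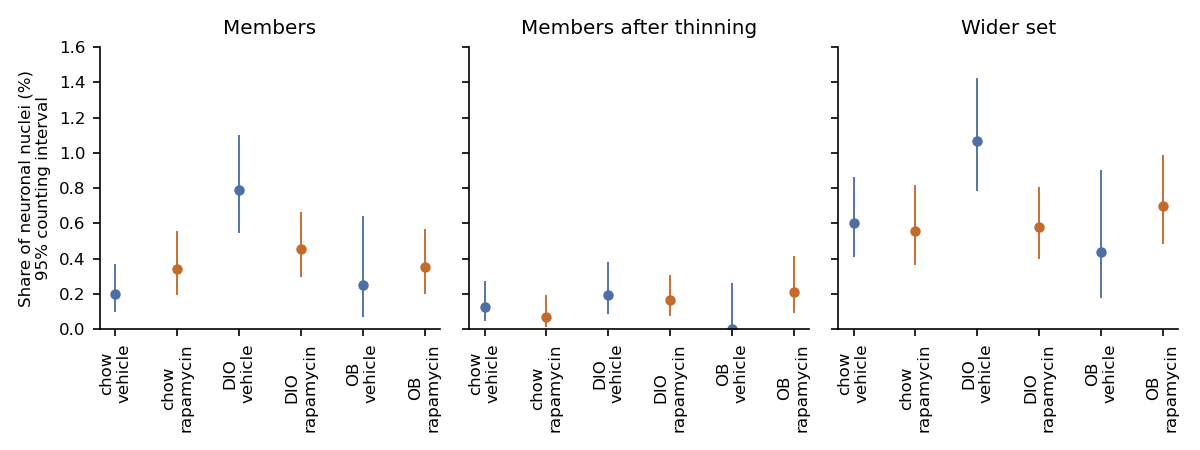
Share of neuronal nuclei, in percent, that were Esr1/Tacr3/Tac2 nuclei (members) by the rule, by the rule after thinning to 2000 UMIs, and in the wider set, for each hashtag group, with exact 95% binomial intervals for counting error (vehicle blue, rapamycin orange). DIO vehicle is the highest group in the left and right panels, at 0.790% and 1.07%, and not in the middle panel.

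Rapamycin against vehicle was tested over the 3 pools with the pool as a block, on the 6 sums of Esr1/Tacr3/Tac2 nuclei. Of 1871 genes outside the rule, edgeR called 0 (0%), with 54 at an unadjusted p under 0.05 and a median log2 fold change of 0.01. DESeq2 called 1, Cntn5 (adjusted p = 0.0179), with 12 at an unadjusted p under 0.05. None of the 9 hormone receptor genes, 16 channel genes or 6 mTORC1 genes that were testable was called. Their median log2 fold changes were -0.05, -0.05 and -0.17. In the wider set edgeR called 0 of 3405 genes, with 126 at an unadjusted p under 0.05. Prlr was at -0.09 ± 0.23, with the rapamycin nuclei lower in the chow and OB pools and higher in the DIO pool, and Insr at -0.05 ± 0.34.

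The genes with the smallest unadjusted p-values, picked out after their values were seen, were Cntn5, Grm8, Nrxn3 and Dock9. Cntn5 stood at 860 CPM with rapamycin and 344 CPM with vehicle in chow, 837 and 155 CPM in DIO, and 886 and 59.8 CPM in OB. It was higher with rapamycin in all 3 pools, at a log2 fold change of 2.09 ± 0.34 (edgeR adjusted p = 0.187). Its UMIs came from few nuclei, the highest 2 giving 48 of 90, 85 of 136 and 38 of 61 UMIs in the 3 rapamycin groups. Its levels in the wider set were 502 and 362 CPM in chow, 745 and 216 CPM in DIO, and 346 and 285 CPM in OB, a log2 fold change of 1.04 ± 0.26 (edgeR adjusted p = 0.897).

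Nrxn3, a presynaptic adhesion gene, gave 1816 and 1132 CPM with rapamycin and vehicle in chow, 1938 and 528 CPM in DIO, and 2063 and 120 CPM in OB. Its log2 fold change was 1.65 ± 0.38 (edgeR adjusted p = 0.639) in the rule-chosen nuclei and 0.24 ± 0.21 in the wider set. Here too 2 nuclei gave 131 of 190, 198 of 315 and 108 of 142 of the rapamycin UMIs. Grm8 went from 1.83 ± 0.41 to -0.14 ± 0.42 in the wider set. Dock9 was at 1.73 ± 0.40 and at 1.24 ± 0.35 in the wider set, and was higher with rapamycin in all 3 pools in both sets. Cntn5, Nrxn3 and Grm8 are also among the genes that were lower in the Esr1/Tacr3/Tac2 nuclei than in other neurons.

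**Figure D5:**
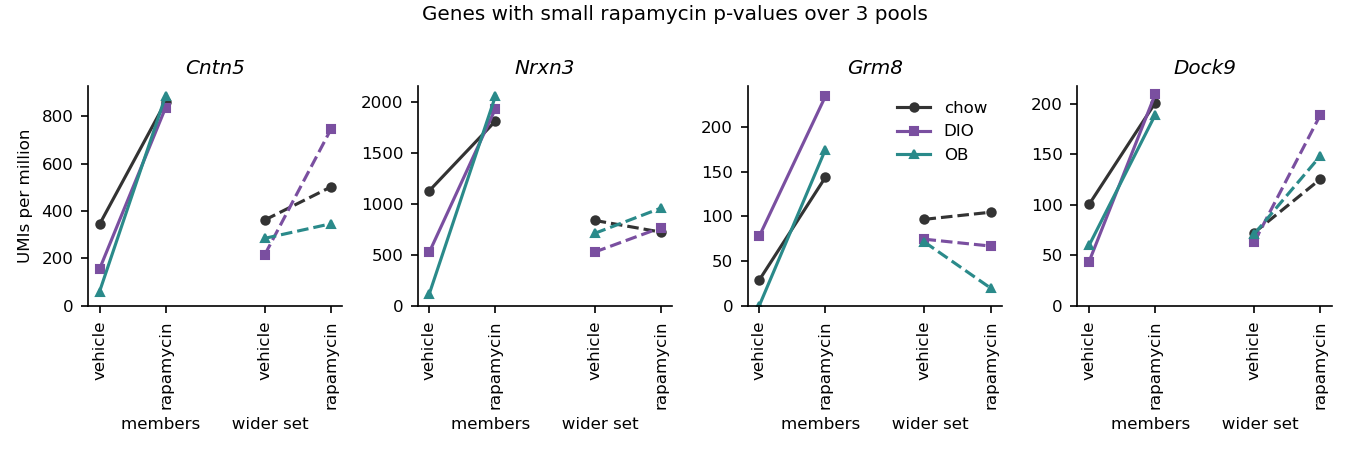
Levels in CPM of Cntn5, Nrxn3, Grm8 and Dock9 with vehicle and with rapamycin, 1 line for each pool, in the rule-chosen nuclei (members, solid) and the wider set (dashed). The 3 solid lines rise in every panel. Dashed lines fall with rapamycin for Nrxn3 in chow (839 to 725 CPM) and for Grm8 in DIO (74.4 to 66.7 CPM) and OB (71.2 to 19.8 CPM).

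Within single pools, ratios have counting intervals only. In the chow pool 21 of 512 genes with at least 50 UMIs (4.10%) were over 2-fold higher and 9 (1.76%) over 2-fold lower with rapamycin. The synaptic adhesion gene Il1rapl2 led with 49 against 6 UMIs, a log2 ratio of 2.45 (1.22 to 3.96), and 0.56 in the wider set. Slc8a1, the sodium-calcium exchanger, was at 1.99 (1.21 to 2.85) and at 1.48 in the wider set. Among the lowest, Cntn4, a contactin, was at -1.77 and Erbb4, a neuregulin receptor, at -1.33. They were at -1.79 and -0.82 in the wider set.

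In the DIO pool 24 of 1427 genes (1.68%) were over 2-fold higher and 25 (1.75%) over 2-fold lower with rapamycin. The highest was the orexin receptor gene Hcrtr2, at 382 CPM from 62 UMIs with rapamycin and 58.2 CPM from 12 UMIs with vehicle, a log2 ratio of 2.71 (1.81 to 3.74). It was 1.99 (1.27 to 2.75) in the wider set. In the other pools Hcrtr2 was at 163 and 172 CPM in chow and 320 and 239 CPM in OB, so the DIO vehicle group was the low one. Chrm3, a muscarinic acetylcholine receptor gene, was at 1.90 (1.31 to 2.52) and at 1.59 in the wider set. The lowest was the zinc finger gene Zfp804b at -2.38 (-3.04 to -1.78), and Prkg1, the cyclic GMP-dependent kinase, was at -1.28 (-1.50 to -1.06) from 227 and 700 UMIs. Both stayed below 0 in the wider set, at -1.42 and -1.10.

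In the OB pool 21 of 212 genes (9.91%) were over 2-fold higher and 3 (1.42%) over 2-fold lower, the vehicle sum holding 4 nuclei. Nrxn3 and Cntn5 led with log2 ratios of 4.11 and 3.89 against vehicle sums of 2 and 1 UMIs, with intervals of 2.23 to 7.17 and 1.36 to 9.22. They were at 0.43 and 0.28 in the wider set. Trpc5 was the lowest at -1.22 (-1.94 to -0.46), and at -0.54 (-1.15 to 0.10) in the wider set.

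Between pools, vehicle nuclei of DIO and OB mice were set against those of chow mice. In DIO 71 of 963 genes (7.37%) were over 2-fold higher than in chow and 34 (3.53%) over 2-fold lower. Klhl29, a kelch-family gene, was at 2.29 (1.19 to 3.64) and Dner, a Notch-related transmembrane gene, at 1.97 (1.04 to 3.07), but the rapamycin nuclei gave 0.62 and 0.01 for the same pools. In the wider set the vehicle ratios were 0.76 (0.23 to 1.32) and 1.36 (0.81 to 1.95). Cntnap5b, a contactin-associated protein gene, was lower at -2.09 (-2.89 to -1.31), at -2.59 between the rapamycin nuclei, and at -2.40 in the wider set. It was the 1 gene of the 5 lowest that was over 2-fold lower in all 3 of these comparisons.

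In OB 14 of 192 genes (7.29%) were over 2-fold higher than in chow and 27 (14.1%) over 2-fold lower. Zfhx3, a homeobox zinc finger factor, stood at 1733 CPM in the OB and 358 CPM in the chow vehicle nuclei, a log2 ratio of 2.27 (1.45 to 3.11). Its ratio was 1.87 between the rapamycin nuclei and 2.76 in the wider set. Rbfox1, a neuronal splicing factor, was at 1.60, 1.21 and 1.78 in the same comparisons. The lowest ratio, Nrxn3 at -3.24, was 0.18 between the rapamycin nuclei and -0.24 in the wider set. Scaling the vehicle sums by TMM factors would add 0.18 to each DIO ratio and -0.57 to each OB ratio.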

How the data were processed

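Per the labels, nuclei were profiled with the 10x Genomics 3' v3 kit, and per the submitters' processing notes the authors used Cell Ranger 6.0.0 and mm10. Per the file headers the OB matrix came from Cell Ranger 7.0.1, so its counting settings may differ, and 27514 genes shared by the 3 matrices were used. The deposited values are raw counts, of UMIs for genes and of tags for the hashtags. Whether intronic reads were counted, and whether strand was used, is not given in the sources used here.

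Hashtags were called with HTODemux (Seurat 5.3.0, quantile 0.99), nuclei needed 500 UMIs, 300 genes and at most 5% mitochondrial UMIs (1 failed), and nuclei with both hashtags or no call stayed out of the tests. Counts were summed over nuclei by hashtag group and tested with edgeR 4.0.16 (TMM, filterByExpr, quasi-likelihood test, Benjamini-Hochberg at 0.05), and DESeq2 1.42.0 was an alternative. Counting intervals are exact at 95% and cover counting error only. The sum of UMIs in a group of Esr1/Tacr3/Tac2 nuclei ran from 16734 (OB vehicle) to 206265 (DIO vehicle). Named genes were past the test, with 50 UMIs and 1 direction in all groups, the 12 highest and 8 lowest; within and between pools, the 5 highest and 5 lowest ratios were taken, of which some are printed. A fixed list of receptor, peptide, transmitter, transcription factor and channel genes was always reported. The nuclei, gene lists and tests were chosen with earlier results of these data known. A few genes of these lists are not reported here. The scripts were tested on simulated counts.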

Additional observations from a re-analysis of the deposited data

Results flagged for a closer look

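The share of neuronal nuclei that were Esr1/Tacr3/Tac2 nuclei was 1.70 times as high with rapamycin as with vehicle in the chow pool, 0.575 times in the DIO pool and 1.40 times in the OB pool. It was picked out because the pools moved in opposite directions. The difference was not tested, since each pool has 1 hashtag for each treatment. In the wider set the order of the 2 treatments was the opposite in chow.

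For 2 genes, 1 hashtag group stood far from the other 5 in the log2 ratio of Esr1/Tacr3/Tac2 nuclei to other neurons. Olfm2 was at 1.37 in the chow vehicle nuclei, where its level was 115 CPM against 249 to 383 CPM in the other groups. Arpp21 was at -0.21 in the OB rapamycin nuclei, where its level was 334 CPM against 59.8 to 100 CPM in the other groups. Some such groups would be picked out by chance alone, at a rate that was not tested.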

How the results depend on the processing

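Genes called between Esr1/Tacr3/Tac2 nuclei and other neurons numbered 575 with DESeq2, 580 after thinning and 389 against the leading cluster, and 374 to 1018 with 1 pool left out. Without the replicate block 985 were called in that comparison, 0 for Tac2 and 0 for rapamycin, so the block changed no count by over 1.5 times. With no filter on low counts, 2 genes passed for Tac2 and 2 for rapamycin, where DESeq2 and leaving out nuclei above the 98th percentile of UMIs gave 1 each. For the 20 genes named by the rule, 213 of 220 alternative values kept direction and call, 6 lost the call and 1 turned. Signs turned after thinning for Slc17a6 (-0.15), Pgr (-0.27), Cacna1g (-0.20), Nkx2-1 (-0.82) and Igf1r (-0.13). The median gene of the thinned fit was at -0.99, against -0.14 in the main fit, and each of these values lay above that thinned median. Against the leading cluster signs turned for Arpp21 (0.39), Npy5r (-0.89) and Rora (0.14). Insr, near 0 throughout, was at 0.078 with DESeq2, 0.0055 with no replicate block, 0.064 without the DIO pool, 0.0080 with hashtags by tag ratio, 0.070 against neurons with 1 or 2 rule genes and 0.037 against the leading cluster. For rapamycin, Grm8 was at -0.14 in the wider set and Nrxn3 at -0.24 with at least 4 rule genes. The cause was not tested.

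Requiring 4 of 6 genes gave shares of 0.0642% and 0.0605% in the chow rapamycin and vehicle groups, 0.140% and 0.279% in DIO and 0.0876% and 0% in OB. Thinning gave 0.0665% for chow rapamycin, 0.163% and 0.192% for DIO and 0% for OB vehicle. The wider set gave 0.557% and 0.605% for chow and 0.701% for OB rapamycin. The wider set and the leading cluster were added after the data had been seen. Depth limits the OB vehicle group most, with 4 nuclei and 16734 UMIs.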
